A study of Rattus norvegicus with 16 samples.

Results

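Dusp1 is a single gene of the 32883 counted in this series, taken by its Ensembl identifier ENSRNOG00000003977 in all 16 libraries. It was singled out because its counts were higher in stressed than in control rats, so its levels by stress group are given here as a description without a test. The study measured bulk RNA in the nucleus basalis of Meynert, the basal forebrain nucleus whose cholinergic neurons supply the cortex. All rats were of the Long Evans strain, at least 70 days old and of the ChAT::Cre genotype, in which Cre recombinase follows choline acetyltransferase expression; no Cre-dependent agent is named in the labels, and controls carry the same genotype as stressed rats. The 4 groups were stressed females, control females, stressed males and control males, with 4 libraries each. The series' design text abbreviates the stressor as VS and gives no schedule or time of collection. Libraries are called by the number in their title. Whether each library is a different animal is not stated in the labels, and the spread behind every p-value is that between libraries, which may be technical.

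Dusp1 encodes MAP kinase phosphatase 1, a nuclear enzyme that takes phosphate off both the threonine and the tyrosine that activate a MAP kinase. It acts on the p38, JNK and ERK kinases and so closes a feedback loop on the signals that switch it on. In many cell types, neurons among them, the gene is an immediate early gene: growth factors, synaptic activity, cAMP, cellular stress and glucocorticoids raise its transcript quickly, and the transcript is short-lived. In bulk tissue a higher level can come from more RNA per cell or from more cells of a type that holds it, and these cannot be told apart.

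In the annotation behind the counts, build Rnor_6.0, Dusp1 lies on the plus strand of chromosome 10 from 16970626 to 16973418. It has 4 exons of 523, 146, 220 and 1047 bases, separated by introns of 224, 373 and 260 bases. The span of 2793 bases is short: 10.7% of the 14241 genes tested have a shorter one, and the median is 21551 bases. The exons sum to 1936 bases, against a median of 2401, so the gene is closer to typical in its exons than in its span. No other annotated gene overlaps it, and no count is shared with a neighbour. RefSeq places a gene named Dusp1 on the same chromosome of the newer build GRCr8 with a span of 2794 bases, 1 base more.

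The 250 bases before the RefSeq start of Dusp1 are shown because this promoter is known to carry cAMP response elements and an E-box, sites through which early genes are switched on. They are chr10:17184603-17184852 of GRCr8, plus strand, printed 5′ to 3′. Capitals mark matches to the cAMP response element (CRE, TGACGTCA), to its core TGACG on either strand, and to the E-box CACGTG.
Dusp1 promoter: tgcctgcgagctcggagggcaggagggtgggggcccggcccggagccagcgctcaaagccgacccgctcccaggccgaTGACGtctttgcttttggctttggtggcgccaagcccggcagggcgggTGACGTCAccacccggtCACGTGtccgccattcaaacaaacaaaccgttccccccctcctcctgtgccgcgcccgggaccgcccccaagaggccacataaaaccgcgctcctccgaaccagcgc

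The full CRE stands 124 to 117 bases before the start, and 1.59% of the 33469 RefSeq promoter windows of the same length hold one. It contains a core on each strand, and with the core 172 to 168 bases before the start Dusp1 has 3. At least 1 core occurs in 18.2% of windows and 3 or more in 0.813%. The E-box, 107 to 102 bases before the start, occurs in 5.59% of windows, and 0.14% hold both a full CRE and an E-box. The GC box GGGCGG was found at 2 places, 1 of them ending just before the CRE and the other 46 to 41 bases before the start, and 30.5% of windows have at least 1.

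Both strands were also searched for the AP-1 site TGANTCA, the glucocorticoid response element, the CArG box of serum response factor and the TATA box TATAAA, and Dusp1 had 0 matches to each. These occur in 6.34%, 0.373%, 1.5% and 12.9% of windows. The window is 68.8% G and C, above the median of 51.2%. A match is a string of letters and no measured site, and no match says only that these letters are not in these 250 bases. No binding was measured in this study.

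Dusp1 was higher in every stressed library than in every control library, in both sexes, at about 4 times the control level. Stressed females had 24.9, 26.2, 28.9 and 26.1 CPM in libraries 1 to 4, where CPM is counts per M (mega) counts of a library after TMM scaling. Control females had 5.88, 7.68, 4.40 and 8.32 CPM in libraries 6, 7, 8 and 10. In CPM the spread was much the same (SD 1.7 under stress and 1.8 in controls). Relative to the group mean the SD was 6.33% under stress and 27.1% in controls. The lowest stressed female library was 3.00 times the highest control.

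Stressed males had 21.7, 23.2, 18.1 and 18.0 CPM in libraries 11 to 14. Control males had 4.60, 5.27, 5.36 and 5.96 CPM in libraries 16, 17, 18 and 20. Here the SD in CPM was 2.6 under stress and 0.56 in controls, but relative to the group mean it was 12.8% and 10.6%. The stressed libraries fall into a higher pair and a lower pair. The lowest stressed male library was 3.02 times the highest control. Genes with all 4 stressed libraries above all 4 controls made up 1.72% of those tested in females, 2.96% in males and 0.14% in both sexes, and Dusp1 is among them by its choice.

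**Figure D1:**
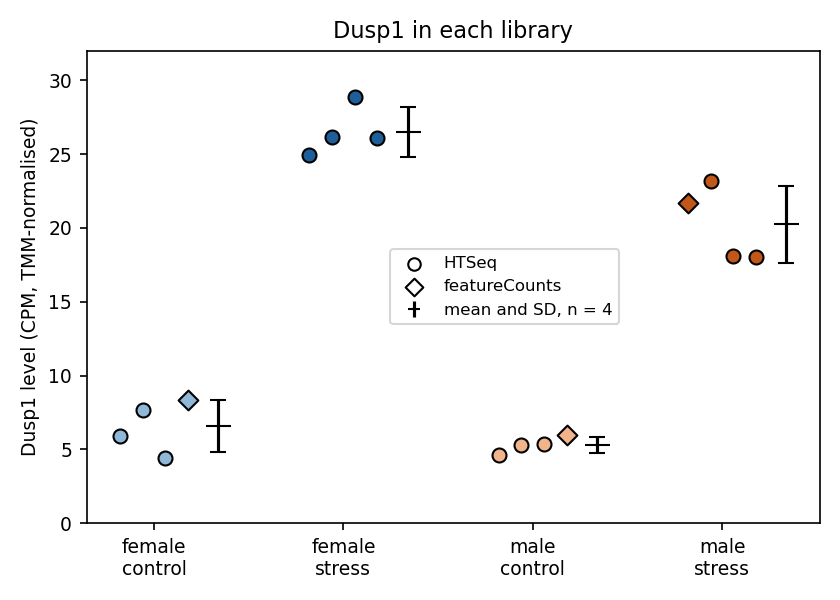
Dusp1 level in CPM (y axis, linear from 0) in each of the 16 libraries by group (x axis); circles were counted with HTSeq and diamonds with featureCounts, and bars give the mean and SD of 4 libraries. Stressed libraries sit between 18.0 and 28.9 CPM and control libraries between 4.40 and 8.32 CPM.

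Group means were 26.5 ± 1.7 CPM (SD, n = 4) in stressed females, 20.3 ± 2.6 in stressed males, 6.57 ± 1.8 in control females and 5.30 ± 0.56 in control males. In this order the stressed females and stressed males do not overlap, the stressed males and control females are separated by a wide gap, and the control females and control males overlap. In the edgeR fit the log2 fold change with stress was 2.00 (SE 0.15) in females and 1.93 (SE 0.15) in males, that is 4.00-fold and 3.81-fold. Averaged over the sexes it was 1.97 (SE 0.11). Ranked by size of rise among the 14241 genes tested, Dusp1 was 3 on average, 16 in females and 9 in males. By the same fit 0.337% of genes were called for the average effect at an adjusted p under 0.05. Dusp1 was chosen on this contrast, so the SE of its stress effects makes no allowance for that choice, and nothing is read from its place in it.

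Single stressed libraries ranged from 3.79 to 4.40 times the control mean in females and from 3.40 to 4.38 times in males. The ranges of the sexes therefore largely coincide once each library is set against controls of its own sex.

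Between genes, levels were compared per kb of exon, since a longer transcript yields more counts. On that scale Dusp1 had 3.39 CPM per kb in control females and 2.74 in control males, rank 5185 and rank 5990 of the 14241 genes. In stressed females it had 13.7 CPM per kb and rank 1331, and in stressed males 10.5 CPM per kb and rank 1844. It thus stood in the middle of the tested genes in controls and in the upper part under stress, above 90.7% and 87.1% of them.

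The response to stress was then compared between the sexes. Dusp1 was chosen for higher counts under stress and not for a difference between the sexes. Earlier results of these data were known at the choice, so the p-values for the sexes are not fully independent of it. The female effect exceeded the male effect by 0.07 on the log2 scale (SE 0.21, 95% interval -0.37 to 0.51), which was not a call in the edgeR quasi-likelihood fit (adjusted p = 0.9997). The interval still holds stress effects from 0.774 to 1.42 times as large in females as in males. For this difference edgeR called 0% of all genes (571 had an unadjusted p under 0.05), DESeq2 called 1 gene and limma voom 0 genes.

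Mean Dusp1 was higher in females than in males in both conditions, but neither difference passed the test over all genes. In controls the log2 fold change, female minus male, was 0.32 (SE 0.16, edgeR unadjusted p = 0.0528, adjusted p = 0.807), with 0.112% of genes called. In stressed rats it was 0.39 (SE 0.15, 95% interval 0.09 to 0.69, edgeR unadjusted p = 0.0134, adjusted p = 0.819), with 0.0913% called. In stressed rats every female library exceeded every male library, by 24.9 CPM for the lowest female against 23.2 CPM for the highest male. Of all genes tested, 1.74% showed the same order without overlap.

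**Figure D2:**
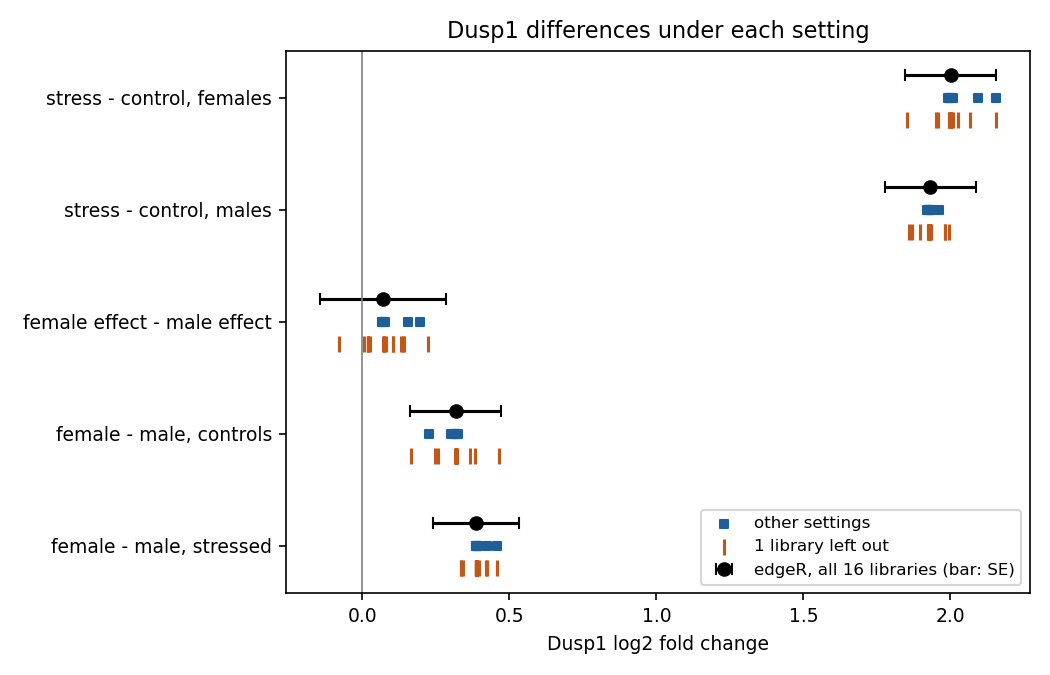
Dusp1 log2 fold change (x axis) for 5 comparisons (y axis): black circles with SE bars are the edgeR fit to all 16 libraries, blue squares the other tools, scalings, filters and sample sets, and orange ticks the fits with 1 library left out. The stress effects stay between 1.85 and 2.15 in females and between 1.86 and 2.00 in males, while the difference between them runs from -0.079 (without female control 8) to 0.22.

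The coefficient of variation was 27.1% in control females, 6.33% in stressed females, 12.8% in stressed males and 10.6% in control males. Counting error alone, which is only part of the spread between separate libraries, has a mean of 6.85%, 3.31%, 3.82% and 6.96%, from 138 to 736 Dusp1 counts in control females, 826 to 1004 in stressed females, 439 to 1148 in stressed males and 153 to 345 in control males. The highest counts of control females, stressed males and control males (736, 1148 and 345) are from featureCounts libraries, run without a paired-end option. If mates of a pair were counted separately there, their counting error is understated. The coefficients of variation rest on 4 libraries each and were not tested against each other or against counting error. Without female control 8 that of the control females was 17.4%, without female stress 3 that of the stressed females was 2.67%, and without male control 16 that of the control males was 6.78%. Over all groups edgeR put the biological coefficient of variation of Dusp1 at 14.7%, against a median of 13.2% for 945 genes within 0.25 log2 units of its level, 74.2% of which varied less.

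Several library measures bear on these values. Mitochondrial genes took 64.2% to 82.5% of counts, and nuclear genes had 5.86 to 22.6 M per library. Against nuclear counts alone, with TMM scaling run again, Dusp1 had 109 ± 7.1 and 27.0 ± 7.3 CPM (SD, n = 4) in stressed and control females. In males it had 83.0 ± 11 and 21.7 ± 2.3 CPM. The ratios, 4.03 and 3.82, were nearly the same as with all counts. Both scales use TMM factors, so these ratios are no separate check on the mitochondrial share. The mitochondrial share overlapped between stressed and control libraries in both sexes (69.6% to 77.9% against 64.2% to 80.3% in females, 76.0% to 82.5% against 70.8% to 78.3% in males). HTSeq also counts reads that it assigns to no feature, which may lie inside or outside genes. Among the HTSeq male libraries these made up 13.1% to 14.0% of all HTSeq entries under stress and 16.6% to 22.0% without it. These ranges do not overlap, and their part in the male values was not tested. The entries include unaligned reads, of which male stress 14 had 26800480, against 9417209 and 9023527 in male stress 12 and 13. A share of aligned reads was not computed, so the lack of overlap holds only for the share of all entries. In females the share of all entries was 15.0% to 31.2% under stress and 10.2% to 18.4% in controls.

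Female control 10, male stress 11 and male control 20 were counted with featureCounts and the other 13 libraries with HTSeq. Female control 10 and male control 20 had the highest Dusp1 of their groups. Among the HTSeq libraries control females had 5.99 ± 1.6 CPM (SD, n = 3), control males 5.08 ± 0.42 and stressed males 19.8 ± 3.0. Without the 3 featureCounts libraries the log2 fold change with stress was 2.15 in females and 1.96 in males, larger than with them in both sexes. Of nuclear counts, Y-linked genes took 8.28 to 11.4 CPM in females and 281 to 326 CPM in males, so each library's sex matched its label. Markers of neurons, glia and vessels were not analysed here, since only Dusp1 was paired with a name.

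The genes whose levels went most with Dusp1 were sought over all 16 libraries, among 11095 genes of at least 1 CPM on average. Their likeness is the Pearson correlation of log2 CPM, given as a description. It mostly reflects the gap between stressed and control libraries, and the points share library, depth and scaling. The 99th percentile of all these genes was 0.64, and 6 genes were above 0.9.

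The closest was ENSRNOG00000007390 (chromosome 6, 76267228 to 76270457), with a correlation of 0.97. In females it had 9.36 to 12.6 CPM under stress and 4.24 to 7.15 CPM in controls, and in males 9.20 to 10.6 and 4.48 to 5.18 CPM. It shared with Dusp1 the separation of stressed from control libraries, at a smaller log2 fold change of 1.00 on average over the sexes against 1.97. Within groups, after subtraction of each group's mean, its correlation with Dusp1 was still 0.72. Female controls 7 and 10 were the higher female controls in both genes. The stressed males went the other way. There this gene was higher in libraries 13 and 14 (10.6 and 10.5 CPM) than in 11 and 12 (9.87 and 9.20 CPM), while Dusp1 was lower in 13 and 14. The likeness within groups is therefore not shared by every group.

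The second was ENSRNOG00000058388 (chromosome 1, 85380088 to 85382569), with a correlation of 0.96 over all libraries and 0.45 within groups. In females it had 8.31 to 11.6 CPM under stress and 4.62 to 5.48 CPM in controls, and in males 7.72 to 9.32 and 3.97 to 5.64 CPM. Its log2 fold change on average over the sexes was 0.94. The third, on chromosome 13 (104284660 to 104321455), had correlations of 0.95 and 0.54 and a log2 fold change of 0.94.

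The fourth was a gene with 1 annotated exon on chromosome 4 (168752133 to 168755023). It had a larger log2 fold change than Dusp1, 3.24, and a correlation of 0.92 over all libraries, but -0.03 within groups. The other 4 of the closest 8 lay on chromosomes 1, 2, 5 and 13, with correlations of 0.89 to 0.91. All 8 had adjusted p under 0.05 for stress on average by edgeR (0.337% of all genes), and 7 of 8 had all stressed libraries above all controls in both sexes (0.14% of all genes). Their choice by likeness to Dusp1 largely fixed both counts, and nothing is read from them. The exception, on chromosome 1 (24185435 to 24302298), had 126 CPM in its lowest stressed female library and 134 CPM in its highest control.

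**Figure D3:**
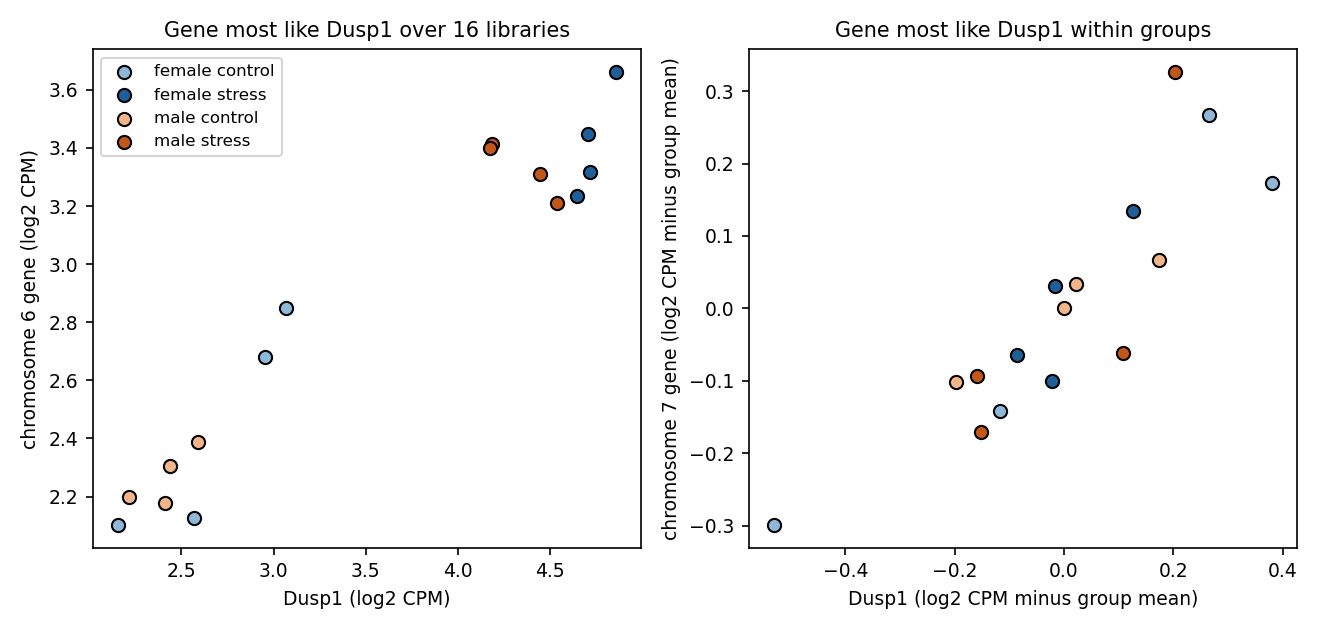
Left, log2 CPM of the closest gene, on chromosome 6 (y axis), against log2 CPM of Dusp1 (x axis); right, the gene closest within groups, on chromosome 7, with the mean of each group subtracted from both axes. Points are the 16 libraries, coloured by group; the left panel splits into stressed and control libraries (correlation 0.97), and in the right panel female control 8 is the lowest point in both genes (correlation 0.87).

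Within groups a different set came out on top. The 5 genes with the highest correlation of residuals had values of 0.82 to 0.87, against a 99th percentile of 0.69. The closest, on chromosome 7 (139724346 to 139734568), had 32.7 ± 2.4 CPM (SD, n = 4) in stressed females and 34.2 ± 6.2 in their controls. In males it had 33.6 ± 5.5 CPM under stress and 39.2 ± 1.9 in controls. Stressed and control libraries of this gene overlapped in both sexes, and its correlation with Dusp1 over all 16 libraries was -0.25.

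Of these 5, 0 were called for stress on average by edgeR, DESeq2 or limma voom, and 2 had an unadjusted p under 0.05 with each tool (edgeR log2 fold changes -0.37 to -0.14, adjusted p 0.321 to 0.739). Over all genes these tools called 0.337%, 0.723% and 0.33%, and 10.2%, 10.7% and 12.1% had an unadjusted p under 0.05, so 0 of 5 called is no result about these genes. Female control 8, the lowest Dusp1 library, carries part of this likeness, since without it the 5 correlations were 0.59 to 0.83. The second of the 5, on chromosome 7 (120393254 to 120403523), overlaps another annotated gene and its count is uncertain.

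The genes around Dusp1 on chromosome 10 are given for their position. The nearest genes tested were at 16821880 to 16910641, 60.0 kb before Dusp1, and at 17209212 to 17291876, 236 kb after it. Their log2 fold changes, averaged over the sexes, were -0.02 (SE 0.09, adjusted p = 0.971 by edgeR) and 0.25 (SE 0.22, adjusted p = 0.753 by edgeR). The other 4 of the nearest 3 on each side had -0.16 to 0.22. Of the 10 other genes tested that start within 1 Mb of Dusp1, a distance chosen after the values were seen, 0 were called by edgeR, DESeq2 or limma voom, and 0 had an unadjusted p under 0.05 with any of these tools. With 0.337% of all genes called by edgeR and 10.2% at an unadjusted p under 0.05, 0 of 10 lies near the share of all genes and shows nothing particular to this stretch.

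**Figure D4:**
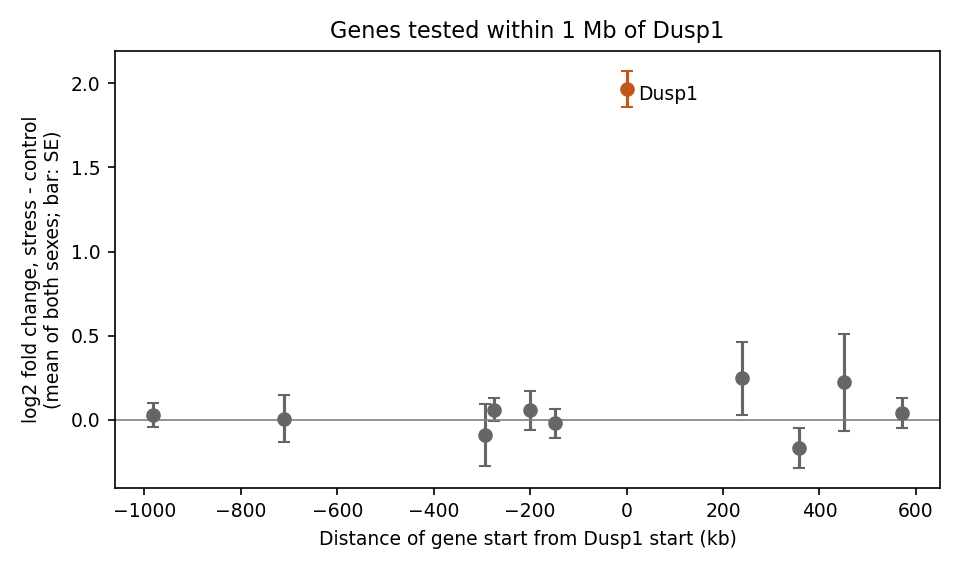
Log2 fold change of stressed against control rats, averaged over the sexes with its SE (y axis), for Dusp1 (orange) and the 10 other genes tested within 1 Mb, by distance of their start from that of Dusp1 in kb (x axis). Dusp1 stands at 1.97 and the other genes between -0.16 and 0.25.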

How the data were processed

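Total RNA libraries (NuGen Ovation RNA-Seq System v2) were sequenced as 75 bp paired ends, per the labels' protocols. STAR 2.5.2a, HTSeq and the build Rnor_6.0 are named in the submitters' processing notes. The authors deposited raw counts per Ensembl gene. Of the 16 files, 13 have the layout of HTSeq, and 3 were made with featureCounts 1.6.1 and Ensembl release 92, per the file headers, without a paired-end or strand option. HTSeq libraries totalled 22.7 to 38.2 M counts and the others 63.1 to 73.8 M. Lines naming no gene (44.8% to 64.7% of HTSeq entries) were left out.

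Counts were fitted in edgeR 4.0.16 (R 4.3.3): TMM factors, filterByExpr (14241 genes), and robust quasi-likelihood fits, with 1 mean per group, over the 16 libraries together. Compared were stress with control per sex, their average and difference, and females against males per condition. P-values were adjusted by Benjamini-Hochberg over all genes. SE is the fold change over the root of the F statistic, and intervals use 25.4 degrees of freedom. DESeq2 1.42.0, limma 3.58.1 voom, RLE scaling, no low-count filter, no mitochondrial genes, no featureCounts libraries, the tool as covariate, 2 groups alone and each library left out were alternatives. Log2 CPM used a prior count of 2.

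Dusp1, the gene lists and the tests were chosen with earlier results of these data known. The gene-name table holds 0 Ensembl identifiers, so Dusp1's name comes from the definition of this gene row, and 24 lists of 218 symbols (MAP kinase pathway, early genes, glucocorticoid-induced genes, cell type markers) were not analysed here. Genes named by rule were Dusp1, the 8 closest in level, the 5 closest within groups and 3 neighbours on each side, with at most 2 identifiers per direction. For stressed females the title numbers differ from those of the deposited counts, which leaves single libraries of that group uncertain and no group comparison. Promoter sequence is from RefSeq (GRCr8). Numbers in titles are not shared between groups.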

Additional observations from a re-analysis of the deposited data

Results flagged for a closer look

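No group of Dusp1 values had a library apart from the other 3. Over 20 genes and 3 library measures, 89 groups were screened for a library beyond Dixon's 95% critical value, which by its definition flags about 1 in 20 groups of normal values, and 5 held one. Total counts were 67.0 M in male control 20, counted with featureCounts, where the remaining male controls had 30 to 34.9 M. Reads assigned to no feature were 31.2% of all HTSeq entries, unaligned ones included, in female stress 1. The other stressed females had 15.0% to 17.3%. The 1-exon gene on chromosome 4 reached 16.5 CPM in female stress 2, while its other stressed female libraries had 11.3 to 12.2 CPM. Of the neighbours of Dusp1, the nearest one before it had 11.2 CPM in female control 7 against 8.93 to 9.18 CPM, and the third one after it had 1.26 CPM in male stress 12 against 0.681 to 0.739 CPM.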

How the results depend on the processing

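The log2 fold change of Dusp1 with stress kept its direction under every alternative run. It moved by less than the larger SD of log2 CPM in the groups compared (0.41 in control females, 0.18 in stressed males). With 1 library left out that limit could hardly be passed, because dropping a library shifts its group mean by less than the group's SD. Nothing is read from the limit for those runs. In females the fold change moved by more than the smaller SD, 0.089 in stressed females, without the featureCounts libraries and with the counting tool as a covariate. It did so too without female control 8 or 10. With 1 library left out it was 1.85 to 2.15 in females, 1.86 to 2.00 in males and 1.89 to 2.04 on average. The difference of the effect between sexes was -0.079 to 0.22, with the negative value without female control 8 and the highest without female control 10; the cause was not tested. It was not called under any alternative for Dusp1 (adjusted p from 0.9947). Female minus male in controls was 0.17 (without female control 10) to 0.47 (without female control 8) with 1 library left out, with adjusted p 0.55 to 0.9999 over all alternatives, and in stressed rats 0.34 to 0.46, with adjusted p 0.375 to 0.998. Numbers of genes called moved more. For stress on average 48 were called by edgeR, 103 by DESeq2, 207 without the filter and 29 without the featureCounts libraries. For females against males 16 were called in controls (54 without the filter, 10 without the featureCounts libraries) and 13 in stressed rats (105 without the filter), and for the difference between sexes 0 (36 without the filter). No paired analysis was possible because the groups share no replicate numbers in the labels. The counts for gene lists and their alternatives were not run, because no list could be paired with identifiers. Depth limits the controls most, where 138 counts of Dusp1 in female control 8 give a 95% Poisson interval of 116 to 163, for counting error only.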
